A study of Mus musculus with 22 samples.

Results

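The ribosomal protein genes encode the protein subunits of the cytosolic ribosome. The set held the autosomal protein-coding genes of the GENCODE M21 basic annotation whose symbols follow the Rpl and Rps numbering or the Rplp series. This rule uses names alone and no measured value. It gave 78 genes on 18 chromosomes, of 20720 autosomal protein-coding genes in all. Of the 78, 72 carry the standard names and 6 are paralogs with symbols ending in l or l1 (Rpl3l, Rpl7l1, Rpl10l, Rpl22l1, Rpl39l and Rps27l). The 4 X-linked genes that fit the naming pattern (Rpl10, Rpl36a, Rpl39 and Rps4x) are not members.

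Chromatin of cultured embryonic stem cells of the mouse, kept in serum+LIF medium, was profiled by chromatin immunoprecipitation and sequencing (ChIP-seq). In 1 group of cultures, E14 cells of wild-type genotype were used. In the other, labelled Mtf2 GT/GT, a gene-trapping cassette disrupted the coding sequence of Mtf2. The labels call the gene-trap cell line Mtf2 GT/GT in one field and E14 in another, and give neither its number of clones nor its parental line, so genotype and line background cannot be told apart. The 7 peak lists cover H3K4me3, EZH2 and H3K27me3 in both genotypes and MTF2 in wild-type cells, and the labels assign each list to both libraries (2) of its group. MTF2 binding in gene-trap cells was not analysed here, and the loss of MTF2 is thus unchecked. With 1 list per group there is no spread between replicates, and no test of the genotype is given. The lists give region positions on mm10 (GRCm38) without counts, so depth is unknown, and a width depends on depth and on the calling threshold as well as on the mark. The promoters of all 8 pluripotency markers examined, Nanog, Sox2 and Zfp42 among them, carried H3K4me3 in both genotypes. Their widths differed between the lists, given here as wild type, then gene trap. Differences were largest at Zfp42 (21983 and 4785 bp), Tfcp2l1 (9598 and 3855 bp), Esrrb (36617 and 21479 bp) and Sox2 (12498 and 18435 bp). They were smaller at Nanog (11428 and 9024 bp), Tdgf1 (10529 and 9219 bp), Klf4 (8872 and 7492 bp) and Dppa4 (3123 and 3646 bp). The lists thus do not show the pluripotent state to be alike. The part of this in the widths reported here was not tested. Among the 8, Esrrb alone also carried H3K27me3, in both genotypes. Of 6 markers of fibroblast feeder cells, 4 carried H3K4me3 in both genotypes, together with H3K27me3 in wild-type cells and with it at 0 of the 4 in gene-trap cells. Col3a1 and Postn had neither mark. All 4 neural and 3 of 4 endoderm markers carried H3K4me3 in both genotypes. H3K27me3 was at 4 and 3 of these in wild-type and at 2 and 3 in gene-trap cells. Over all autosomal genes H3K4me3 marked 67.0% in wild-type and 67.5% in gene-trap cells, and H3K27me3 20.0% and 2.82%. The fibroblast share with H3K4me3 is near that over all genes, and these counts do not show whether feeder cells were present.

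H3K4me3 is the histone mark found at promoters of transcribed genes and at most CpG-rich promoters. Polycomb repressive complex 2 (PRC2), with EZH2 as its catalytic subunit, lays down H3K27me3 at silent developmental genes, and MTF2 is a PRC2 partner that binds CpG-containing DNA. Ribosomal protein genes are short, transcribed in nearly all cells at high rates, and have CpG-rich promoters, so that they hold the base composition that PRC2 sites share while being active. Their transcripts usually begin in a stretch of pyrimidines through which mTOR signalling controls translation.

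The promoters printed next show the base composition of standard members and of the paralogs whose marks differed. Each line gives 200 bases before and 20 bases from the RefSeq transcription start site (TSS) on, read 5′ to 3′ on the coding strand from RefSeq GRCm38.p6, with every CG dinucleotide in capitals.
Rplp0 (chr5:115559267-115559486, plus strand): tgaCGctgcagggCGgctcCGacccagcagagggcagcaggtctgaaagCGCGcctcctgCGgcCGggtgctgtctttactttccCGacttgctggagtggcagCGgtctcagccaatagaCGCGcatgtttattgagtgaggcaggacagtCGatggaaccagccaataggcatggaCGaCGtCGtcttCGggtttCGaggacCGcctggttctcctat
Rps6 (chr4:86857348-86857567, minus strand): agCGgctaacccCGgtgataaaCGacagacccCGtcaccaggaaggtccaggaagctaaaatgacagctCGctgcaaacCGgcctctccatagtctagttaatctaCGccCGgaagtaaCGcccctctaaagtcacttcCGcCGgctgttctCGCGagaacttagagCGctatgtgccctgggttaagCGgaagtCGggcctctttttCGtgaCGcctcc
Rpl5 (chr5:107900328-107900547, plus strand): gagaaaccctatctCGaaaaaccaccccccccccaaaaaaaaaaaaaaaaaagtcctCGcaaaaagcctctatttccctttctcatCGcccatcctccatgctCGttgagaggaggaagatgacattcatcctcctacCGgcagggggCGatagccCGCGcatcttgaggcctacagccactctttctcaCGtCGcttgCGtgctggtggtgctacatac
Rpl10l (chr12:66284382-66284601, minus strand): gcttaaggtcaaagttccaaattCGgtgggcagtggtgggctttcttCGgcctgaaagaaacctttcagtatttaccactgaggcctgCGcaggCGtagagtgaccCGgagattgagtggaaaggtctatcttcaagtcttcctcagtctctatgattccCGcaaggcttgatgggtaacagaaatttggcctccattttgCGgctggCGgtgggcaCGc
Rpl39l (chr16:10170028-10170247, plus strand): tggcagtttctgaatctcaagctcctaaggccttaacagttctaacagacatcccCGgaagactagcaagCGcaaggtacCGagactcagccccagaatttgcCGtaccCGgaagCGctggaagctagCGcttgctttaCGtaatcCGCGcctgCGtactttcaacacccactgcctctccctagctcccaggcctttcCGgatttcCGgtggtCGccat
Rpl3l (chr17:24727626-24727845, plus strand): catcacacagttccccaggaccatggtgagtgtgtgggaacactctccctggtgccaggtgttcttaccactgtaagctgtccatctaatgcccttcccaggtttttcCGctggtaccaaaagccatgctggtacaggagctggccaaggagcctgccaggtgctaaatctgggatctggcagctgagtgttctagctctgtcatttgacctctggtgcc
The stretch held 18 CG dinucleotides at Rplp0, which encodes the base of the ribosomal stalk, and 18 at Rps6, which encodes the target of the S6 kinases. Rpl5, whose product carries the 5S ribosomal RNA together with that of Rpl11, had 11. Rpl10l, the autosomal paralog of Rpl10, had 9, and Rpl39l, the autosomal paralog of Rpl39, had 14. Rpl3l, the striated muscle paralog of Rpl3, had 1.

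All 78 ribosomal protein genes carried H3K4me3 in wild-type cells, with a peak within 1 kb of a TSS. In gene-trap cells 76 did (97.4%, exact Clopper-Pearson 95% interval 91.0 to 99.7 over genes). Among all autosomal protein-coding genes 67.0% had a wild-type and 67.5% a gene-trap H3K4me3 peak. No member could gain the mark, which 4.02% of the genes without wild-type H3K4me3 did. The members without a gene-trap peak were Rpl3l and Rpl39l, and 1.18% of all genes with wild-type H3K4me3 likewise had none. Rpl3l had the narrowest wild-type peak of the set, 517 bp, which began 269 bp downstream of the TSS. Rpl39l had the next narrowest, 1222 bp, with the TSS inside it. The 72 standard members all had H3K4me3 in both genotypes.

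The H3K4me3 peaks of these genes were broad. Where several peaks touched a promoter window, the widest was measured. In wild-type cells the widths ran from 517 bp at Rpl3l to 14163 bp at Rps15a, with a median of 6191 bp, against a median of 2490 bp over all 13877 genes with H3K4me3. Of the 78 members, 38 (48.7%) were in the widest 10% of genes, above 6236 bp, and 75 were wider than the median. The member median stood at the 89.9th percentile of all genes. In gene-trap cells the members ran from 1701 bp at Rpl10l to 11204 bp at Rpl38, a gene known for its part in translation of Hox transcripts, with a median of 5056.5 bp against 2208 bp over all genes. There 50 of 76 (65.8%) were in the widest 10%, above 4627 bp. The wild-type and gene-trap widths of the members ran in a like order (Spearman's rho 0.84 across 76 genes, which share the same lists and are not replicates).

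**Figure D1:**
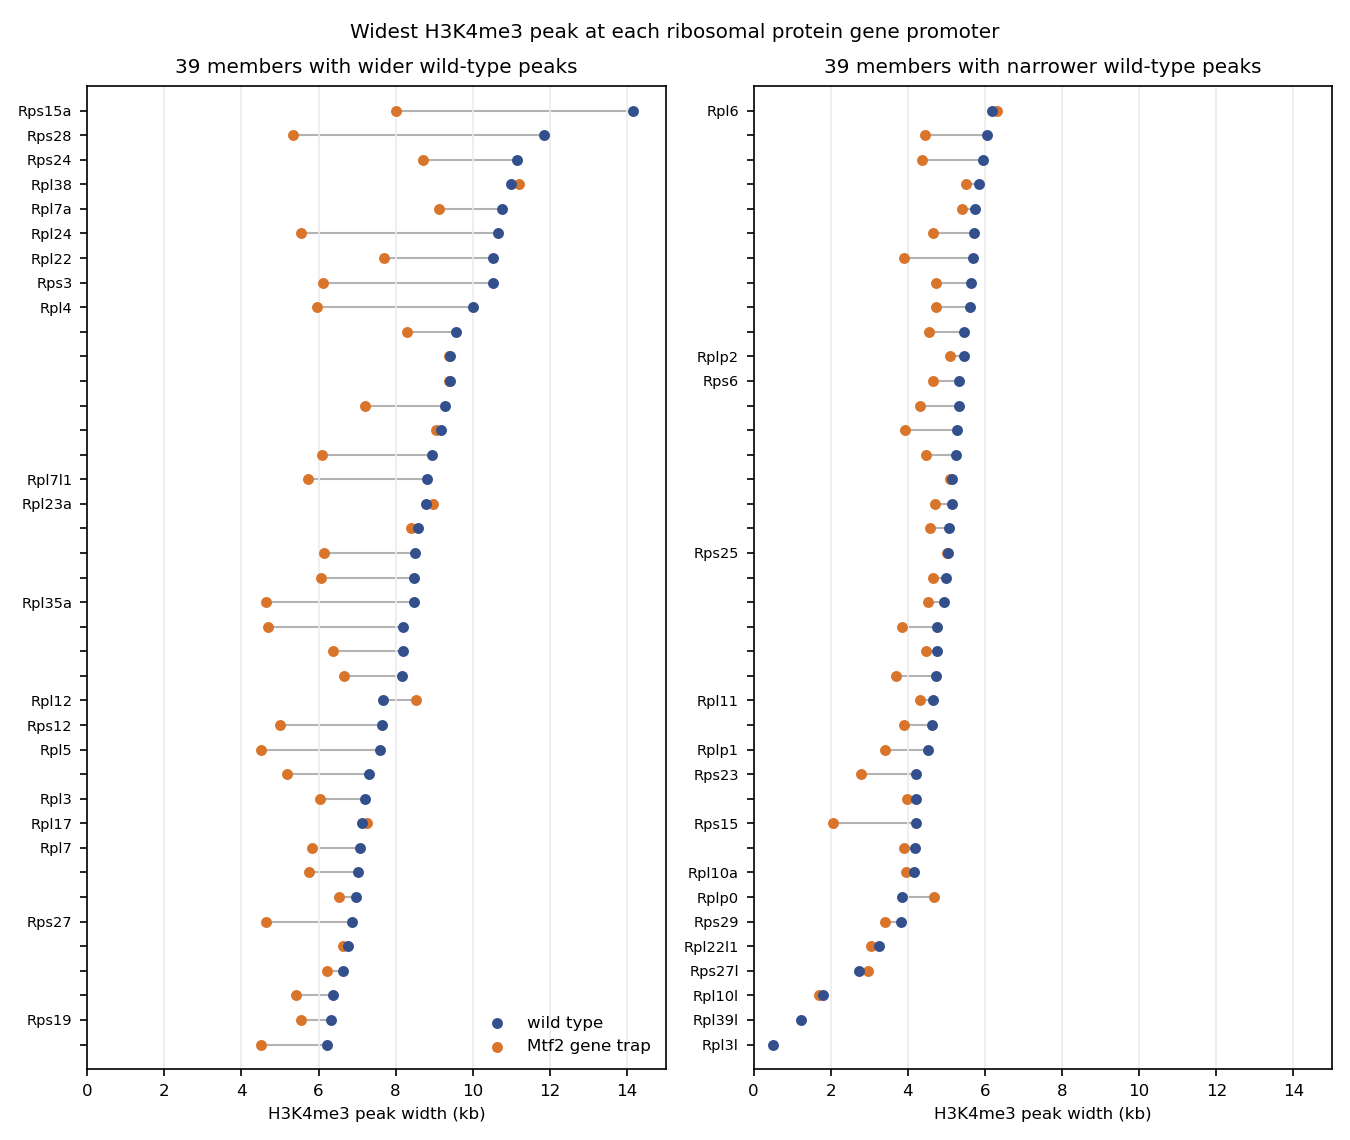
Width in kb (horizontal axis) of the widest H3K4me3 peak at each of the 78 promoters in wild-type (blue) and Mtf2 gene-trap cells (orange), 1 row per gene, in order of wild-type width, with names for members described in the text. Gene-trap points lie to the left for 69 of 76 genes, and Rpl39l and Rpl3l have a wild-type point only.

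After Rps15a, a small-subunit gene, the widest wild-type peaks were at Rps28 (11852 bp), Rps24 (11151 bp), Rpl38 (10992 bp) and Rpl7a (10756 bp). The narrowest after Rpl3l and Rpl39l were at Rpl10l (1813 bp), Rps27l (2727 bp) and Rpl22l1 (3259 bp), so that the 5 narrowest peaks of the set were all at paralogs. The narrowest among standard members was that of Rps29, with 3812 bp. Large-subunit and small-subunit genes were alike in level, with wild-type medians of 6174 bp over 43 standard Rpl and Rplp genes and 6752 bp over 29 Rps genes. The gene-trap medians were 4744 and 5180 bp. Across the 78 members, wild-type width showed next to no relation to CpG density (Spearman's rho -0.049) and a moderate one to gene length (0.42).

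Several peaks also reached over neighbouring genes. In 26 members the wild-type peak also held a TSS of another protein-coding gene, and the median width of these was 8072 bp. The other 52 members, with no such TSS, had a median of 5553.5 bp, against 2256 bp over all 11221 genes with such a peak. The Rpl7a peak also held the start sites of Med22, Surf1 and Surf2, genes of the surfeit cluster. The Rps15a peak held no other protein-coding TSS.

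Most members were covered by H3K4me3 from end to end. Their median length was 3399.5 bp, against 17594 bp over all genes, and the wild-type peaks covered 63 of the 78 in full, against 3.99% of all genes with H3K4me3. In gene-trap cells 51 were, against 3.13% of the same genes. Among genes of at most 5 kb the wild-type median width was 5671 bp for 60 members and 2722 bp for all 1706 genes with H3K4me3. Of these, 54 of the 60 members and 471 of the 1706 genes were covered in full in wild-type cells. In gene-trap cells 49 and 411 were. Members covered only in part included Rpl11, annotated over 25164 bp, with 17.4% under wild-type H3K4me3, and Rpl5 with 78.5%. In gene-trap cells the share was 39.2% at Rpl5 and 15.6% at Rpl11. Small nucleolar RNA genes, which guide ribosomal RNA modification, lie inside 27 members, 53 of them in all and 5 in Rpl4 alone. Host members had a wild-type median of 7315 bp and the other 51 members one of 5611 bp.

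Most of each peak lay downstream of the TSS. Distances were taken from the TSS around which most annotated transcripts of the gene begin, and from the peak that contains it, which could be done in both genotypes for 73 members. In wild-type cells the median peak reached 1117 bp upstream and 4939 bp downstream, and the downstream side was longer in 71 of the 73. Over all 12695 such genes the medians were 813 and 1523 bp. Rpl18 was among those with the longer side upstream. At Rps15 the peak began 16 bp upstream of the TSS in wild-type and 17 bp upstream in gene-trap cells. The wild-type peaks of Rplp0 and Rpl6 began 29 and 21 bp downstream of the TSS, while their gene-trap peaks included it.

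In gene-trap cells the H3K4me3 peaks of 69 of 76 members (90.8%) were narrower and those of 7 wider, while 72.0% of all genes with both peaks were narrower and 27.8% wider. The median gene-trap width was 84.3% of the wild-type width (median log2 ratio of widths -0.25), against 91.2% over all genes (-0.13). Past a 1.5-fold difference, 12 members were narrower (15.8%) and none wider, against 12.7% and 3.21% of all genes, so the share past this size was near the background. Among the 5591 genes with H3K4me3 in both lists, at least 6 CpG per 100 bp around the TSS and no MTF2, 84.8% were narrower, 17.6% were past 1.5-fold and the median log2 ratio was -0.21, close to the members' values. Genes with MTF2 had a median of 0.0051, with 48.6% narrower. These sets are not matched in width. Their wild-type medians were 6191 bp in members, 3194.5 bp in the CpG-rich genes without MTF2 and 1903 bp in genes with MTF2. The ratio went with wild-type width, with medians for other genes of -0.070 up to 3 kb and -0.93 above 10 kb. With peaks cut to 5 kb around the TSS, 3 of 76 members (3.95%) were narrower past 1.5-fold, against 10.7% of all genes, and the median log2 ratio was -0.11 against -0.12. Such a cut takes more from peaks that reach far. The median wild-type downstream reach was 4939 bp in members and 1523 bp over all genes. The cut therefore cannot tell where the larger median change of the members lies. The 29 Rps genes were narrower without exception, and 37 of the 43 standard large-subunit genes were. Depth and thresholds may differ between the H3K4me3 lists, and their part in the narrower widths was not tested.

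The difference was mostly on the downstream side. The downstream edge was nearer to the TSS in gene-trap cells in 70 of 73 members (95.9%), against 74.3% of all genes, and the exceptions were Rpl22l1, Rpl23a and Rps27l. The upstream edge was nearer in 41 of 73, against 61.3%. The median downstream reach was 4939 bp in wild-type and 3774 bp in gene-trap cells, with a median difference within genes of -820 bp. For the upstream side these medians were 1117 and 1134 bp, with a median difference of -14 bp. Over all genes the median differences were -134 bp downstream and -27 bp upstream. The downstream edge was also nearer in 24 of 25 ribosome biogenesis genes (median -610 bp) and 19 of 20 aminoacyl-tRNA synthetase genes (-1516.5 bp). The counts were 52 of 57 for translation factor (-525 bp), 31 of 35 for proteasome subunit (-138 bp) and 59 of 76 for mitochondrial ribosomal protein genes (-176.5 bp). Among H3K4me3 genes with at least 6 CpG per 100 bp and no MTF2 it was 4743 of 5549 (-263 bp). At Rps3, whose product lines the mRNA entry channel, the downstream reach was 10005 bp in wild-type and 5626 bp in gene-trap cells, while the upstream reach was 510 and 496 bp. At Rpl24 it was 9853 and 4797 bp downstream and 805 and 751 bp upstream. The reach ends where the peak with the TSS ends, so a peak split in the gene-trap list can count as shortened. At Rpl24, whose wild-type peak also held the Zbtb11 start, 2 gene-trap peaks covered 90.6% of it. More than 1 gene-trap peak overlapped the wild-type peak at 9 of 78 members, against 294 of all 13877 genes with H3K4me3.

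**Figure D2:**
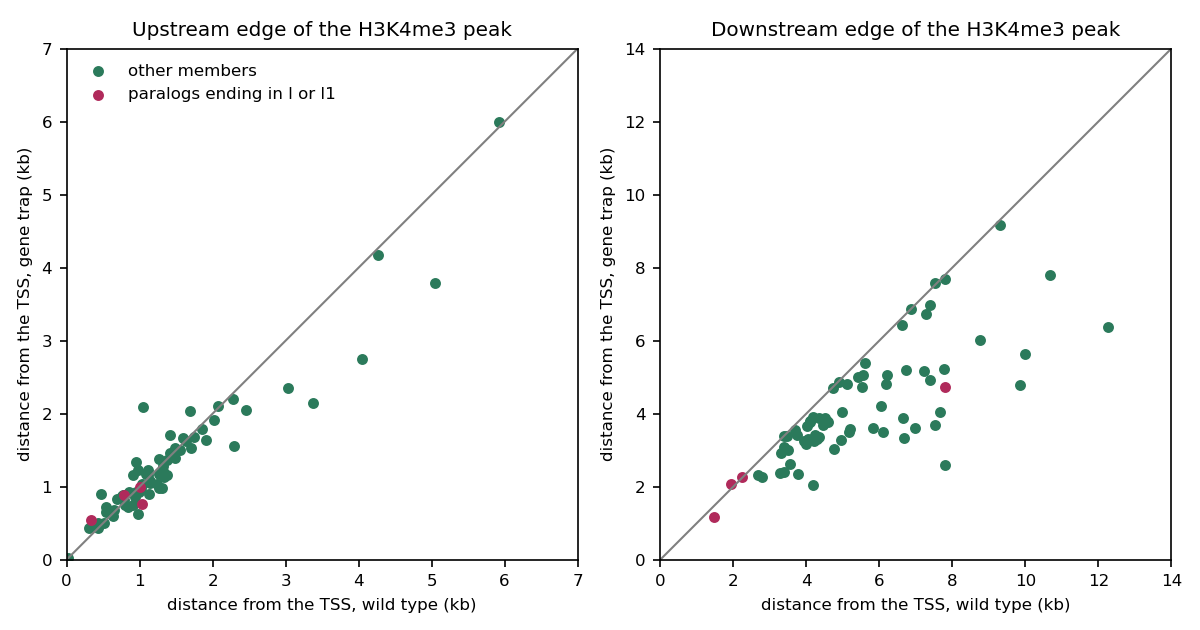
Distance in kb from the TSS to the upstream (left) and downstream (right) edge of the H3K4me3 peak, wild type on the horizontal and gene trap on the vertical axis, 1 point per gene for 73 members, with the line of equal distance. Upstream points scatter about the line, and 70 of 73 downstream points lie below it.

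The largest drop in width was at Rps28, from 11852 to 5328 bp (log2 ratio -1.15). Rps15 followed with 4206 and 2072 bp (-1.02), then Rpl24 with 10659 and 5549 bp (-0.94). Next were Rpl35a with 8474 and 4629 bp (-0.87) and Rps15a with 14163 and 8002 bp (-0.82). Of these 5 wild-type peaks, those at Rps28 (Ndufa7), Rps15 (Apc2), Rpl24 (Zbtb11) and Rpl35a (Iqcg and Lmln) also held a TSS of the other gene named. The peak at Rps15a held none. In all 5, the wild-type peak contained 2 separate gene-trap peaks, of which the wider is counted, and together these covered 78.3% of it at Rps28, 75.2% at Rps15, 90.6% at Rpl24, 83.3% at Rpl35a and 84.1% at Rps15a. Such a break was found in 7 of the 12 members past 1.5-fold, Rpl4 among them. The remaining 5 had 1 shorter gene-trap peak each. These were Rpl5 (7586 and 4497 bp), Rps3 (10516 and 6123 bp), Rps12 (7647 and 4993 bp), Rps23 (4217 and 2789 bp) and Rpl7l1 (8801 and 5735 bp). When all gene-trap bases inside the wild-type peak were counted, 5 of 76 members (6.58%) had less than the wild-type width divided by 1.5, against 11.9% of all genes.

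The members with wider gene-trap peaks differed little in size. Rplp0 went from 3842 to 4667 bp (log2 ratio 0.28), Rpl12, which encodes a protein at the base of the stalk, from 7669 to 8535 bp (0.15), and Rps27l from 2727 to 2959 bp (0.12). For Rpl6 (6174 and 6325 bp), Rpl17 (7124 and 7268 bp), Rpl38 (10992 and 11204 bp) and Rpl23a (8799 and 8966 bp) the log2 ratio was at most 0.035. The smallest difference was at Rps25, with 5038 and 5029 bp. Of the other stalk genes, Rplp1 had 4517 bp in wild-type and 3407 bp in gene-trap cells (-0.41), and Rplp2 had 5449 and 5087 bp (-0.099). Rpl11 had 4651 and 4313 bp (-0.11). Rps6 had 5338 and 4644 bp (-0.20), and Rps19, a gene mutated in Diamond-Blackfan anaemia, had 6311 and 5558 bp (-0.18). Rpl10a had 4150 and 3966 bp (-0.065). All of these well-known members thus kept a peak of several kilobases in both lists.

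Wide peaks were narrower in gene-trap cells at other genes too, and by a larger median than at ribosomal protein genes of the same width class. Between 5 and 7 kb of wild-type width the median log2 ratio was -0.21 for 26 members and -0.37 for 978 other genes. From 7 to 10 kb it was -0.29 for 23 members and -0.63 for 581 others, and above 10 kb it was -0.75 for 9 members and -0.93 for 443 others. The class above 10 kb has no upper bound. Wild-type widths ran to 14163 bp in members and 68628 bp in other genes, so widths are not matched there. From 3 to 5 kb it was -0.12 for 16 members and -0.21 for 2982 others. Past 1.5-fold narrower were 0 of the 26 members between 5 and 7 kb against 35.6% of the other genes, and 5 of the 23 from 7 to 10 kb (21.7%) against 51.5%. The members thus had the smaller median change in these 4 classes, of which the one above 10 kb is not matched in width. Over all widths, with peaks as listed, their median change was the larger. No test was made of either difference. The classes were formed by wild-type width, which is also the denominator of the ratio. A lower ratio in wider classes can follow from this alone, and its part was not tested.

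**Figure D3:**
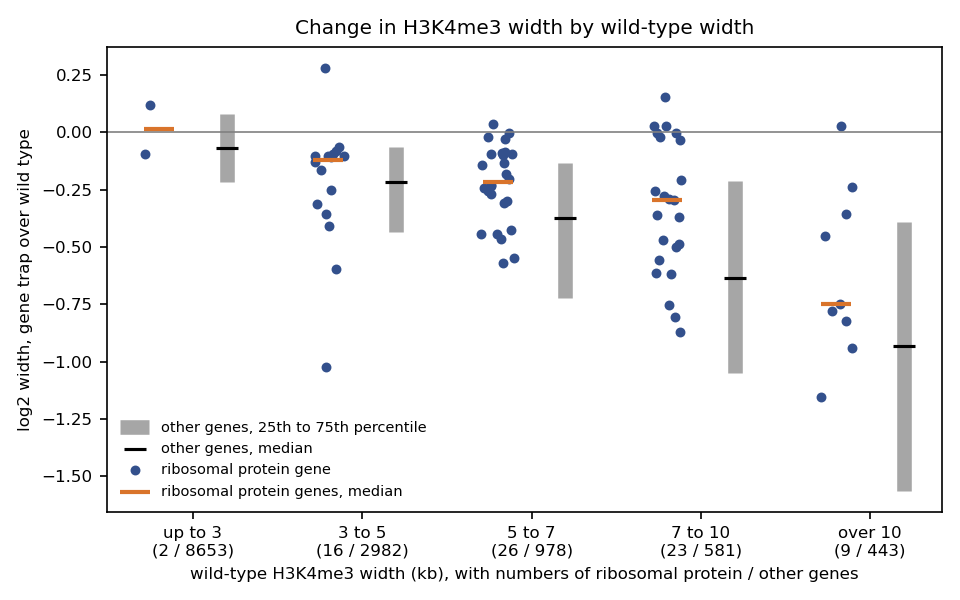
Log2 ratio of gene-trap to wild-type H3K4me3 width (vertical axis) by class of wild-type width in kb (horizontal axis), with each ribosomal protein gene as a point and the median and middle 50% of other genes beside it. In the 4 classes above 3 kb the median of the ribosomal protein genes lies above that of the other genes.

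Polycomb marks were all but missing from this set. MTF2 touched 1 of 78 promoters (1.28%, exact Clopper-Pearson 95% interval 0.0325 to 6.94 over genes) against 16.4% of all autosomal genes. EZH2 touched 2 (2.56%, 0.312 to 8.96) against 17.1%, and H3K27me3 touched 1 (1.28%) against 20.0%. In gene-trap cells none of the 78 had EZH2 or H3K27me3, where the shares over all genes were 0.772% and 2.82%. A peak under the calling threshold would not be listed, so these counts concern called peaks only.

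The member with all PRC2 peaks was Rpl10l, a gene of 1023 bp on chromosome 12 that is expressed mainly in testis. In wild-type cells it had MTF2 from 127 bp upstream to 569 bp downstream of the TSS (chr12:66283832-66284528, 697 bp) and EZH2 over 628 bp from 29 bp upstream to 598 bp downstream. H3K27me3 covered 1940 bp and H3K4me3 1813 bp around the same TSS, so that the promoter carried both histone marks. In gene-trap cells the EZH2 and H3K27me3 peaks were not called, while H3K4me3 spanned 1701 bp. Its X-linked relative Rpl10 had H3K4me3 over 4206 bp in wild-type and 3666 bp in gene-trap cells, and no PRC2 peak.

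Rpl7 was the only standard member with a PRC2 peak in its window. This was an EZH2 peak of 217 bp (chr1:16105379-16105595), placed 717 to 933 bp upstream of the Rpl7 TSS and absent from the gene-trap list. The start of Rdh10, which encodes a retinol dehydrogenase of retinoic acid synthesis, lies 1112 bp from that of Rpl7 on the opposite strand. The H3K4me3 peak of 7063 bp at Rpl7 held both starts and spanned 5820 bp in gene-trap cells. An H3K27me3 peak began 1213 bp from the Rpl7 TSS, outside the window. The nearest MTF2 peak lay 11203 bp from the Rpl7 TSS. Rdh10 itself had EZH2 and H3K27me3 peaks at its promoter in wild-type cells and none in gene-trap cells.

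Outside the promoters the shares with Polycomb peaks lay on both sides of those over all genes. Within 10 kb of the TSS, 3 members had an MTF2 peak (3.85%), 6 an EZH2 peak (7.69%) and 9 an H3K27me3 peak (11.5%). The shares over all genes were 18.5%, 19.4% and 23.3%, which include peaks at the promoter itself. Among genes without an H3K27me3 peak at the promoter, 8 of 77 members (10.4%) had one within 10 kb, against 5.08% of all such genes. For EZH2 this was 4 of 76 (5.26%) against 3.71%, and for MTF2 2 of 77 (2.60%) against 3.38%. At Rpl22 the nearest MTF2 peak lay 9724 bp away. The median distance to the nearest MTF2 peak was 108578 bp for the members and 110027 bp over all genes. For EZH2 it was 92045 and 103728 bp, and for H3K27me3 76298.5 and 76857 bp.

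The scarcity of PRC2 marks did not go with a lack of CpG. In the 1 kb around the TSS the members had a median of 6.75 CpG per 100 bp, against 4.5 over all genes and 6.5 over the 3401 genes with MTF2. The triplet GCG, counted on both strands, stood at 4.25 per 100 bp in members and 4.90 in MTF2 genes. Of the 78 members, 43 had from 6 to 8 CpG per 100 bp, a class in which 22.3% of all genes carried MTF2 and no member did. Another 13 had 8 or more, where 28.6% of all genes and no member had MTF2. In the class from 4 to 6, with 23.2% of all genes, 1 of 17 members had it, Rpl10l. Rpl3l (1.20) and Rpl17 (1.10, at an annotated start 1250 bp upstream of its H3K4me3 peak) were lowest.

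**Figure D4:**
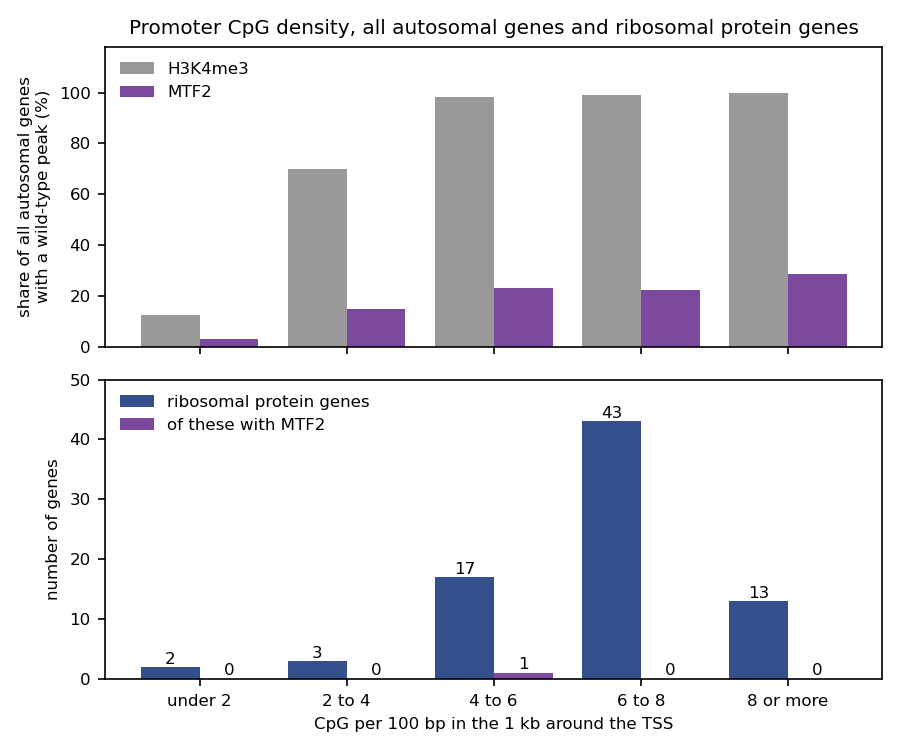
Share in % of all autosomal genes with wild-type H3K4me3 or MTF2 (top) and number of ribosomal protein genes, with those carrying MTF2 (bottom), by CpG per 100 bp around the TSS. MTF2 marks 22.3% to 28.6% of all genes in the 3 densest classes and 1 of the 73 ribosomal protein genes there.

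Other short motifs were counted in RefSeq promoter windows of 300 bases, 250 before and 50 from the start, which were matched for 58 of the 78 members and for 14213 autosomal genes. Motifs were searched on both strands, and GCG lies within 2 of the others. CCGGAAG, a core bound by ETS factors such as GABP, was in 23 of the 58 (39.7%) and in 13.6% of all windows. ATGGCG, a core of the YY1 site, was in 19 (32.8%) and 12.3%. GGGCGG, the core of Sp1 family sites, was in 34 (58.6%) and 52.7%, CACGTG in 5 (8.62%) and 8.71%, and TATAAA in 4 (6.90%), Rplp0 among them, and 11.2%. GCG was in all 58 and in 89.3%. On the coding strand, CTTTC within 10 bases of the RefSeq start was found in 10 (17.2%), Rplp2 and Rps27 among them, and in 2.38% of all windows. A search for this exact string leaves out other pyrimidine stretches, such as that at the printed Rps6 start. RefSeq starts up to 1000 bp from the GENCODE TSS were accepted. Restricted to the 10339 genes with wild-type H3K4me3, the shares were 17.8% for CCGGAAG, 15.5% for ATGGCG, 2.26% for CTTTC, 68.2% for GGGCGG, 10.4% for CACGTG, 6.35% for TATAAA and 98.9% for GCG. Against these genes the members had GGGCGG in a lower share and TATAAA in about the same. Such a match is a description of letters and not of binding.

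The 6 paralogs had narrower wild-type peaks than their parent genes, save for Rpl7l1. Rpl3l, with 517 bp in wild-type cells, stood beside Rpl3 with 7217 bp, which had 6045 bp in gene-trap cells. Rpl22l1 had 3259 and 3034 bp and its parent Rpl22 had 10517 and 7695 bp. Rps27l, a target of p53, had 2727 and 2959 bp and Rps27 had 6862 and 4631 bp. Rpl39l had 1222 bp and no gene-trap peak, while X-linked Rpl39 had 6965 and 5396 bp. Rpl7l1 had 8801 and 5735 bp against 7063 and 5820 bp at Rpl7. Around the GENCODE TSS, CpG per 100 bp was 1.20 at Rpl3l and 3.10 at Rpl39l, the paralogs with no gene-trap H3K4me3. It was 4.5 at Rpl7l1, 5.40 at Rpl10l, 6.9 at Rpl22l1 and 8.10 at Rps27l. The order differed in the RefSeq window of 300 bases. There Rpl39l had 17 CG, against 13 at Rpl10l, 16 at Rpl7l1, 24 at Rps27l, 30 at Rpl22l1 and 2 at Rpl3l. Any relation of CpG density to the missing peaks was not tested.

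Other genes of protein synthesis and turnover had H3K4me3 about as often but in narrower peaks. All 78 autosomal mitochondrial ribosomal protein genes had H3K4me3 in both genotypes, with a wild-type median width of 2558.5 bp. Those genes serve the separate ribosome of mitochondria. Ribosome biogenesis genes came nearest in width, with a median of 5221 bp over 25 genes, followed by 20 aminoacyl-tRNA synthetase genes (4462.5 bp), 57 translation factor genes (4103 bp) and 38 proteasome subunit genes (2901.5 bp). Peaks were narrower in gene-trap cells in 61 of 78, 25 of 25, 20 of 20, 47 of 57 and 31 of 38 genes of these lists, in the order named. Median log2 ratios were -0.15, -0.30, -0.53, -0.27 and -0.13. MTF2 marked 0, 1, 0, 5 and 2 genes of the lists, the translation factor list having 58 members. Hox genes, as a list rich in PRC2, had MTF2, EZH2 and H3K27me3 at all 39, and H3K4me3 at 34 in wild-type and 39 in gene-trap cells, with median widths of 2035 and 2265 bp.

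**Figure D5:**
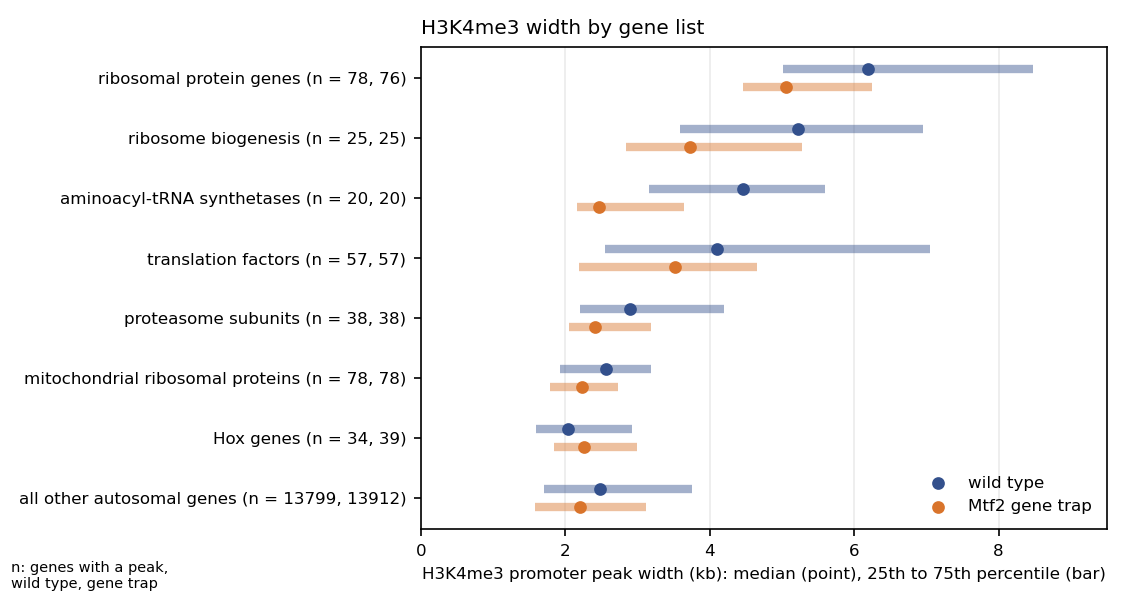
Width in kb of H3K4me3 promoter peaks (horizontal axis) for 7 gene lists and all other autosomal genes in wild-type (blue) and gene-trap cells (orange), with the median as a point and the 25th to 75th percentile as a bar. Ribosomal protein genes have the highest medians in both genotypes among the lists drawn, 6191 and 5056.5 bp.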

How the data were processed

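Per the labels, ChIP libraries of mouse embryonic stem cells were read in 75 bp reads. The series has 22 samples in 12 groups, and the 14 libraries behind the 7 lists were used here, the other 8 not. CASAVA, BWA 0.7.10-r789 and MACS2 2.7 are listed, with no role or order, per the submitters' processing notes, with mm10 (GRCm38) as the build. The caller's threshold, its control, how the libraries of a group were combined and what MAnorm and unbiased mean in the list names are not given in the sources used here. The values the authors deposited are the start and end of each region in bp, with no other measure. Ends fell within GRCm38 chromosome lengths.

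Starts were converted to positions counted from 1. A mark was assigned to a gene if any listed region overlapped the window of 1 kb on either side of any protein-coding TSS (GENCODE M21 basic). Width ratios used the widest such peak, with 1.5-fold as the size counted. CpG was read from the GRCm38 sequence. Shares have exact Clopper-Pearson 95% intervals (scipy 1.17.1), which cover counting over genes only, since genes are not replicates. No test was run, because each group has 1 list. The overlap code was tested on simulated regions.

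The members and gene lists were chosen with earlier results of these data known. Members named are those without H3K4me3 in a list, those with a PRC2 peak, the 5 widest, the 5 narrowest, the 5 with the largest and the 5 with the smallest log2 width change, Rplp0, Rplp1, Rplp2, the paralogs with their parents, and Rpl5, Rpl11, Rps6, Rps19 and Rpl10a. Others named were chosen after their values were seen. Some members are counted but not reported by name here.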

Additional observations from a re-analysis of the deposited data

How the results depend on the processing

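No paired analysis was possible because each group has 1 list for both libraries and its columns carry no replicate number, and for the same reason no library could be left out. The alternatives were a promoter window of 0.5 or 2.5 kb, the TSS inside the peak, peaks of at least 500 bp, no paralogs, 1 TSS per gene, summed widths, and peaks cut to 5 kb around the TSS. Added after seeing the data were members with no other TSS in the peak, and all gene-trap bases inside the wild-type peak. The number with EZH2 in wild-type cells was 1 in place of 2 with a 0.5 kb window, with the TSS inside the peak, with peaks of at least 500 bp and without paralogs. Without paralogs MTF2 and H3K27me3 each marked 0 genes, and with a 2.5 kb window H3K27me3 marked 2. The number narrower past 1.5-fold, 12 of 76 as reported (15.8%), was 3 with peaks cut to 5 kb and 5 with all gene-trap bases counted. With no other TSS in the peak it was 7 of the 50 members with both peaks, a like share (14%). The median log2 ratio, -0.25 as reported, was -0.11 with peaks cut to 5 kb and -0.11 after subtracting the median of all genes. The other settings left counts within 1.5 times, and medians within the order-statistic interval of the median over genes. Unknown depth limits all statements on absent peaks.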

Other observations

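The 4 X-linked ribosomal protein genes, outside the set by its rule, had H3K4me3 in both genotypes and no MTF2, EZH2 or H3K27me3 peak at the promoter. Their widths in wild-type and gene-trap cells were 4206 and 3666 bp at Rpl10, 5102 and 3793 bp at Rpl36a, 6965 and 5396 bp at Rpl39, and 5726 and 4348 bp at Rps4x, which encodes a small-subunit protein. All 4 were narrower in gene-trap cells.

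Besides Rpl7, several members had an H3K27me3 peak within 10 kb but not at the promoter. The distance from the TSS was 5977 bp at Rps15, 6569 bp at Rpl8, 6635 bp at Rpl13a, 7236 bp at Rpl22, 8430 bp at Rpl19 and 9085 bp at Rpl30. In gene-trap cells the nearest H3K27me3 peak lay 42630 bp from Rpl22 and at least 196180 bp from the other 5 of these genes.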
